A study of Mus musculus with 4 samples.

Results

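Cck, Nts and Pyy encode 3 gut peptide hormones, cholecystokinin, neurotensin and peptide YY. They were followed here through single-cell RNA libraries from mouse intestine, as the rows of the gene tables that carry these symbols: 3 of 31054 rows, each symbol matching 1 row. Enteroendocrine cells, scattered hormone-producing cells of the gut epithelium, make these peptides as longer precursors and release them after a meal. Cholecystokinin is known for gallbladder contraction, pancreatic enzyme secretion and satiety, neurotensin for fat absorption and gut motility, and peptide YY for slowing the passage of food and reducing appetite. Cells making cholecystokinin were classically called I cells, those making neurotensin N cells and those making peptide YY with glucagon-family peptides L cells. Single cells often carry several of these hormone transcripts.

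In GRCm38 (mm10) coordinates and the GENCODE annotation, all 3 are protein-coding genes on the minus strand. Cck (ENSMUSG00000032532) spans chromosome 9 from 121489824 to 121495694, Nts (ENSMUSG00000019890) chromosome 10 from 102481756 to 102490486, and Pyy (ENSMUSG00000017311) chromosome 11 from 102106676 to 102107832. Their proximal promoters are shown because the 3 genes were read out in overlapping sets of endocrine cells. Each line gives the 250 bases upstream of the RefSeq start site (GRCm38.p6), 5′ to 3′ on the gene's strand, which is the minus strand. Capitals mark E-boxes, matches to CANNTG, the motif that basic helix-loop-helix factors such as Neurog3 and Neurod1 recognise.
Cck, chr9:121495695-121495944: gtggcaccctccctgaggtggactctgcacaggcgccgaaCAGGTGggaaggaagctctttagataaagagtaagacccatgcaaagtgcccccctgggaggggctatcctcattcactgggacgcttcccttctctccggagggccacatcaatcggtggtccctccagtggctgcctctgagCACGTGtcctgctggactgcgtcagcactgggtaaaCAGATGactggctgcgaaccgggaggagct
Nts, chr10:102490419-102490668: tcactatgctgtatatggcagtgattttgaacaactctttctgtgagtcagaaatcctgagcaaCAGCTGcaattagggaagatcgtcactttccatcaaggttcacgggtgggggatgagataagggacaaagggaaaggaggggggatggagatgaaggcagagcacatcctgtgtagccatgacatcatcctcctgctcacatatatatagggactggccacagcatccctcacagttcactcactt
Pyy, chr11:102107833-102108082: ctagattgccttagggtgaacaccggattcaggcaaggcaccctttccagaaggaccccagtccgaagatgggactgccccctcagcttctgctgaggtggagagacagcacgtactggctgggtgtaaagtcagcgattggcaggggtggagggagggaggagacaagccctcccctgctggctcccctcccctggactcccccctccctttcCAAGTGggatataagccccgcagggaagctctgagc
The Cck window held 3 E-boxes, first bases 210, 66 and 30 before the start, and the Nts and Pyy windows held 1 each, at 186 and 36. At least 1 E-box was present in 66.0% of 27025 mouse promoters cut to the same length and searched on both strands, and 3 or more in 12.1%. The Nts window held TATATA at positions 45 and 43, in overlapping copies (5.56% of promoters), and TGACATCA, a variant of the cAMP response element, at 67 (3.02% of promoters). CCAAT was found once in the Pyy window on the opposite strand (34.5% of promoters). TATAAA and TGACGTCA were in none of the 3 windows. The RefSeq start of Nts lies 68 bases from the GENCODE end used above.

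All 4 libraries came from mice that carry the Bmi1-GFP reporter allele, in which GFP is expressed from the Bmi1 locus. Flow-sorted intestinal epithelial cells were taken at embryonic day 12.5 (E12.5), at E17.5, from adults and after irradiation. The labels do not give the radiation dose, the time after it, adult age, the number of animals or the sort gates. Each group was 1 library, so no test of a condition was possible, and an interval below covers counting error only. Unique molecular identifiers (UMIs), each standing for 1 captured RNA molecule, totalled 38648331 to 90674425 per library. Between 3184 and 4602 barcodes per library had at least 500 genes and at most 20% mitochondrial UMIs, and 3031 to 4409 were kept once the highest doublet scores were removed. Any pair of libraries shared 6 to 12 cell barcodes.

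Cells were clustered without the 3 genes. Clusters that scored highest on a list of general endocrine genes (Chga, Chgb, Neurod1, Pax6 and others) are called pan-endocrine here. They held 1312 cells at E17.5 (8 clusters), 2220 in the adult (9 clusters) and 2088 after irradiation (11 clusters). No cluster at E12.5 met this rule, although under a stricter cell filter 14 E12.5 cells did. A further 290 cells at E17.5, in 3 clusters whose leading genes include Ppy or the insulin genes Ins1 and Ins2, are called islet-hormone cells. That library also held 535 cells with pancreatic exocrine genes. Under a stricter naming rule, which asks for list markers among the top genes, 3, 5 and 2 pan-endocrine clusters of E17.5, adult and irradiated kept the name enteroendocrine-like, since hormones rather than list markers led the others. In 4 of the E17.5 clusters and 1 adult cluster a gene of another list stood among the top genes and no general endocrine gene did. Values across libraries are therefore given by cluster number as well. Median depth per pan-endocrine cell was 7462 UMIs at E17.5, 3191 in the adult and 8894 after irradiation.

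At E12.5 the 3 genes were near 0 in most cells, and by E17.5 Cck and Nts were among the most abundant transcripts of the endocrine cells. Levels are given in CPM, which scales a gene's UMIs to a common total, so that 54828 CPM are 5.48% of all UMIs. Over all kept cells, Cck stood at 1.56 CPM at E12.5 (128 UMIs), 6006 at E17.5, 15023 in the adult and 29612 after irradiation. Nts stood at 0.0487 (4 UMIs in 4 cells), 2434, 1216 and 1641 CPM. Pyy stood at 40.5 (3324 UMIs), 2037, 243 and 466 CPM. Cck was higher at each step of that order, while Nts and Pyy were highest at E17.5. These totals also move with the share of endocrine cells in each sort. From E12.5 to E17.5 the log2 ratio was 11.91 for Cck (95% interval 11.66 to 12.17), 15.61 for Nts (14.25 to 17.49, resting on the 4 UMIs) and 5.65 for Pyy (5.60 to 5.70), where 13.6% of 17013 genes with at least 10 UMIs were at least 2-fold higher and 13.9% lower. Over genes with at least 1 or at least 50 UMIs these shares were 10.6% and 10.8%, or 15.9% and 16.3%.

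Pyy was the member that E12.5 cells did carry. One cluster of 15 cells (cluster 17), led by Gcg, the proglucagon gene, and by Pyy, Chgb and Gast, held 90.2% of the library's Pyy UMIs and 81.3% of its Cck UMIs, and its Pyy level was 12299 CPM. Pyy reached 10 UMIs in 15 cells of 4050, of which 9 lay in that cluster with 24 to 883 Pyy UMIs. The cell with 883 also had 1696 Gcg, 80 Gast and 39 Cck UMIs. The other 6 cells had 10 to 63 Pyy UMIs in cells of 10892 to 59287 UMIs. In these 6, the 14 endocrine genes looked at (Gcg, Chga, Neurod1, Isl1 and others) gave 1 UMI in all, of Chgb. Of those 6 cells, 4 belonged to cluster 11, whose top genes include Ptf1a, a transcription factor of the early pancreas. The 6 cells were singled out after their values were seen. Cck reached 10 UMIs in 2 cells, both in cluster 17, and Nts in none.

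**Figure D1:**
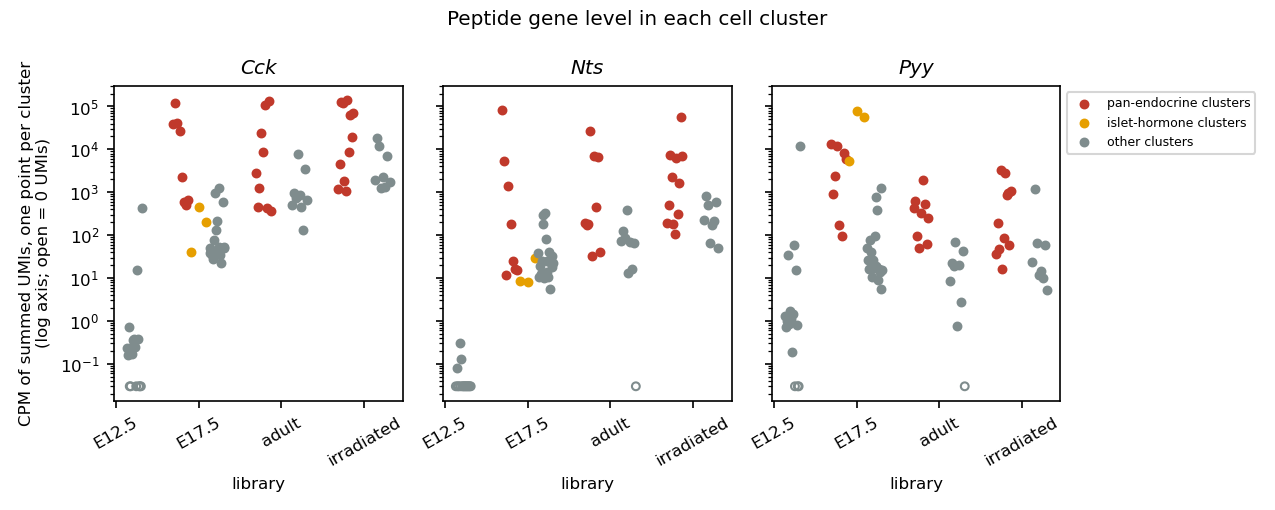
Level of each peptide gene in every cluster of the 4 libraries, in CPM of the cluster's summed UMIs on a log axis; red points are pan-endocrine clusters, orange islet-hormone clusters, grey all others, and open points have 0 UMIs. From E17.5 on, 1 cluster per library has the highest Nts level, 83192 CPM at E17.5, while Pyy peaks in 2 orange islet-hormone clusters.

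In pan-endocrine cells, Cck was among the 4 most abundant transcripts in each of the 3 later libraries. It stood at 42540 CPM at E17.5 (rank 2), 33627 in the adult (rank 4) and 54828 after irradiation (rank 1), where it made up 5.48% of all UMIs. The log2 ratio of adult over E17.5 was -0.34, but this direction was not stable: the mean of each cell's CPM gave -1.18 and all kept cells gave 1.32. The ratio of irradiated over adult was 0.71 (0.70 to 0.71), a 1.63-fold higher level. The 2-fold mark was passed upward by 1.47% of 14066 genes in that comparison and downward by 2.80% (1.09% and 2.08% of genes with at least 1 UMI, 1.61% and 2.5% with at least 50).

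Nts and Pyy were lower in adult than in fetal pan-endocrine cells. Nts stood at 17072 CPM at E17.5 (rank 4), 2776 in the adult (rank 23) and 3032 after irradiation (rank 21). Its log2 ratio of adult over E17.5 was -2.62 (-2.64 to -2.60), and 98.95% of genes had a higher ratio. Pyy stood at 5756, 552 and 876 CPM (ranks 12, 184 and 127), with a log2 ratio of adult over E17.5 of -3.38 (-3.42 to -3.35). In that comparison 9.05% of 13970 genes were at least 2-fold lower and 11.5% higher (6.74% and 8.57% of genes with at least 1 UMI, 8.34% and 11.6% with at least 50). Irradiated over adult, Nts had a log2 ratio of 0.13 (0.11 to 0.15) and Pyy of 0.67 (0.63 to 0.71). The Nts value changed sign, to -0.11, without the 3 shallowest irradiated pan-endocrine clusters (2, 12 and 15), an alternative added after the data were seen. Cluster 15 had the highest Nts level of the irradiated library, and no adult cluster was left out. This alternative therefore removes Nts-rich cells from 1 side only. The comparisons adult over E17.5 and irradiated over adult share the adult library.

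The clusters show which cells carried these levels. Cck was spread over several clusters in each library. At E17.5 it reached 123150 CPM in cluster 7, where 99.5% of cells had at least 20 Cck UMIs once thinned to 2000 UMIs, and 26931 to 40112 CPM in clusters 6, 8 and 10. In the adult it reached 135246 CPM in cluster 13 and 108655 in cluster 9, and after irradiation 119797 to 139279 in clusters 4, 7 and 10. In the strongest Cck clusters more than 1 UMI in 10 was therefore Cck, in all 3 libraries. Other pan-endocrine clusters ran far lower, such as clusters 14 and 17 at E17.5 with 606 and 505 CPM, and adult clusters 4, 5, 12 and 16 with 361 to 1239. The most Cck in a single cell was 8208 UMIs, in irradiated cluster 4.

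In each library 1 cluster had a far higher Nts level than the others. That cluster held 216 cells at E17.5 (cluster 6, 83192 CPM), 187 in the adult (cluster 7, 27107 CPM) and 79 after irradiation (cluster 15, 58026 CPM). The median cell there had 535.5, 33 and 88 Nts UMIs. A lower Nts level of 5382 to 7324 CPM was found in Cck-rich clusters: E17.5 cluster 7, adult 9 and 13, and irradiated 4, 10 and 19. By number of molecules, the E17.5 cluster held most of the Nts, 158583 of 176233 UMIs in the library. Adult cluster 7 held 12373 of 36237, beside 10914 in cluster 9 and 10610 in cluster 13. Irradiated cluster 15 held 11681 of 63600, fewer than the 23450 of cluster 4 and the 12320 of cluster 10. Adult cluster 7 and irradiated cluster 15 were shallow, with medians of 2085 and 2216 UMIs per cell against 8922.5 in the E17.5 cluster.

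The Nts clusters of the 3 libraries differed in Pyy. Pyy stood at 13621 CPM (13456 to 13788) in the Nts-led cluster at E17.5, 50.4 (31.9 to 75.6) in that of the adult and 59.6 (30.8 to 104.1) in that of the irradiated library. Of 208 such E17.5 cells thinned to 2000 UMIs, 35 had at least 20 Pyy UMIs, against 0 of 104 in the adult and 0 of 44 after irradiation. Those 35 were a minority, since the median cell of the E17.5 cluster had 3 Pyy UMIs and 1 cell had 2886.

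Pyy was the peptide least bound to the pan-endocrine clusters at E17.5. Of its UMIs in that library, 58.2% lay in islet-hormone cells and 39.2% in pan-endocrine cells, whereas 98.4% of Cck and 97.4% of Nts UMIs lay in pan-endocrine cells. Islet-hormone cluster 19 had 79435 CPM and cluster 25 had 56804 CPM of Pyy, and islet-hormone cells as a whole had 33659 CPM with only 183 CPM of Cck and 11.0 of Nts. Within pan-endocrine clusters Pyy was highest in clusters 6, 10, 17 and 18 (13621, 11791, 8260 and 6026 CPM). Cluster 10 was led by Gcg and Ghrl, the ghrelin gene, cluster 18 by Sst, the somatostatin gene. Among adult clusters Pyy was highest in cluster 9, at 1895 CPM, and among irradiated clusters in 7 and 10, at 3272 and 2780 CPM.

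To compare cells of unequal depth, each was thinned at random to 2000 UMIs. This left out 33, 485 and 256 shallower pan-endocrine cells and kept 1279, 1735 and 1832 (E17.5, adult, irradiated). With a cut of 5 UMIs, Cck was called in 56.1%, 36.8% and 49.3% of cells, Nts in 21.3%, 8.18% and 10.1%, and Pyy in 22.8%, 5.13% and 4.91%. That cut also passed Cck in 4.55% of adult and 19.4% of irradiated tuft cells, chemosensory cells outside the pan-endocrine set. Their median depths were 4288 and 8275.5 UMIs. Co-expression is therefore described at 20 UMIs, 1% of a thinned cell, a cut chosen after the values at 5 UMIs were seen. For any of the 3 genes, 0 of 901 adult tuft cells and 0 of 515 E17.5 pancreatic exocrine cells passed 20 UMIs (shares of up to 0.333% and 0.583% are allowed by a count of 0). Tuft cells went into the choice of this cut, so their count is no check of it. Other classes did pass it for Cck: 19 of 143 adult Paneth cells (13.3%), 3 of 50 adult enterocytes, 26 of 422 irradiated tuft cells (6.16%), and in all 0.300% of non-endocrine cells at E17.5, 2.06% in the adult and 8.80% after irradiation. For Nts, 5, 0 and 4 non-endocrine cells passed it, and for Pyy 4, 0 and 0. Of the 8 E17.5 non-endocrine cells that passed for Cck, 7 were in the epithelial class. That class includes clusters 23 and 28, which are led by Neurog3.

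At 20 UMIs, 45.0% of E17.5 pan-endocrine cells were positive for Cck (95% interval 42.3 to 47.8), 18.4% of adult (16.6 to 20.3) and 32.5% of irradiated cells (30.3 to 34.7). Nts-positive cells made up 18.2%, 6.22% and 6.39%, and Pyy-positive cells 11.3%, 0.98% and 2.07%. These shares depend on the other endocrine cells in each sort. The level inside positive cells does not depend on that share, but it covers only cells deep enough to be thinned. The median Cck-positive cell gave 6.28% of its UMIs to Cck at E17.5, 9.15% in the adult and 11.2% after irradiation. The median Nts-positive cell gave 5.45%, 2.82% and 2.75% to Nts, and the median Pyy-positive cell 2.5%, 1.80% and 1.78% to Pyy. The Nts-led clusters had median depths of 8922.5 UMIs at E17.5, 2085 in the adult and 2216 after irradiation. A larger part of the adult and irradiated ones was therefore too shallow to be counted. With all their cells, these clusters stood at 83192, 27107 and 58026 CPM of Nts. The effect of the uncounted cells on the Nts medians was not tested. The single highest values were 30.75% for Cck (irradiated), 28.4% for Nts (E17.5) and 21.3% for Pyy (E17.5), and 42.4% for Pyy among islet-hormone cells. For Nts, 11, 6 and 18 cells lay just under the cut (15 to 19 UMIs) and 6, 10 and 9 just above it (20 to 24 UMIs). For Pyy these were 23, 11 and 13 cells under it and 20, 3 and 7 above it, a larger part of the 145, 17 and 38 positive cells.

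**Figure D2:**
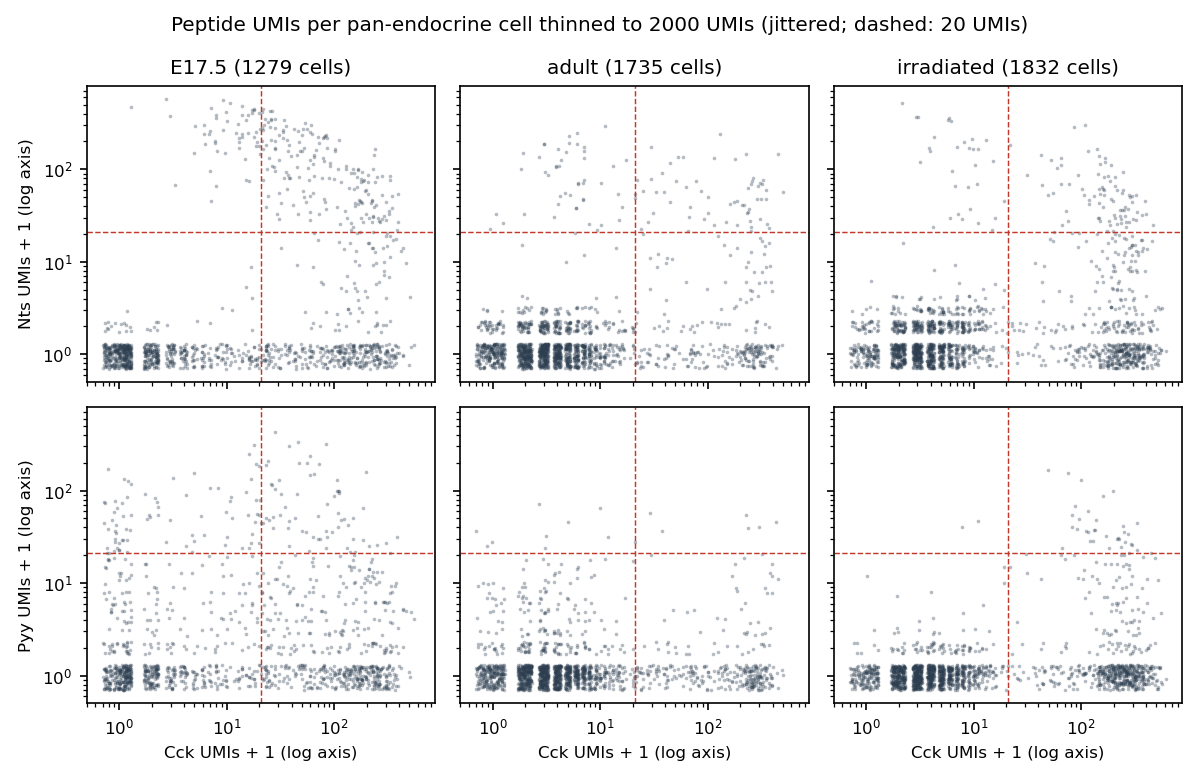
Each point is a pan-endocrine cell thinned to 2000 UMIs, with its Cck UMIs against its Nts UMIs (top) or Pyy UMIs (bottom), plus 1 and jittered, on log axes; dashed lines mark 20 UMIs. At E17.5 the Nts-rich cells form an arc in which cells with more Nts have less Cck, and irradiated Pyy-positive cells lie almost all to the right of the Cck line.

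Among cells deep enough to be thinned, most Nts-positive cells also carried Cck, although the adult interval starts at 46.6%. Of 233 Nts-positive cells at E17.5, 180 were Cck-positive (77.3%, 71.3 to 82.5), 1.72 times the number that the product of both shares gives. In the adult it was 61 of 108 (56.5%, 46.6 to 66.0; 3.07 times) and after irradiation 85 of 117 (72.6%, 63.6 to 80.5; 2.24 times). Taken the other way, 31.25%, 19.1% and 14.3% of Cck-positive cells were Nts-positive. Nts-positive cells without Cck had median depths of 8391 UMIs at E17.5, 2408 in the adult and 2836.5 after irradiation. Those with Cck had 9467, 8224 and 15546 UMIs. Cells too shallow to be thinned are not counted, so the adult and irradiated shares of Nts-positive cells with Cck may lean toward deeper, Cck-positive cells. The size of this effect was not tested. Over all thinned pan-endocrine cells Pearson's r of the log2 counts (plus 1) of Cck and Nts was 0.33, 0.29 and 0.26, and that of Cck and Pyy 0.07, 0.06 and 0.28, across 1279, 1735 and 1832 cells that share their library's free RNA.

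Pyy-positive cells carried Cck in a larger share after irradiation than at E17.5 or in the adult. The E17.5 and adult shares were similar at 20 UMIs, where the adult had 17 Pyy-positive cells, but not at 5 UMIs. At 5 UMIs they were 67.0% (61.3 to 72.4) at E17.5 and 40.4% (30.2 to 51.4) in the adult. The values that follow are for 20 UMIs. At E17.5, 66 of 145 Pyy-positive cells were Cck-positive (45.5%, 37.2 to 54.0), 1.01 times the product of the shares. In the adult, 8 of 17 were (47.1%, 23.0 to 72.2), 2.56 times the product. After irradiation, 36 of 38 were (94.7%, 82.2 to 99.4), 2.92 times the product. Nts and Pyy were together in 34, 3 and 6 cells. All 3 genes reached 20 UMIs in 23 cells at E17.5 (1.80%), 3 in the adult (0.173%) and 5 after irradiation (0.273%). Pyy alone was found in 68, 9 and 1 cells. None of the 133 Pyy-positive islet-hormone cells was positive for Cck or Nts.

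**Figure D3:**
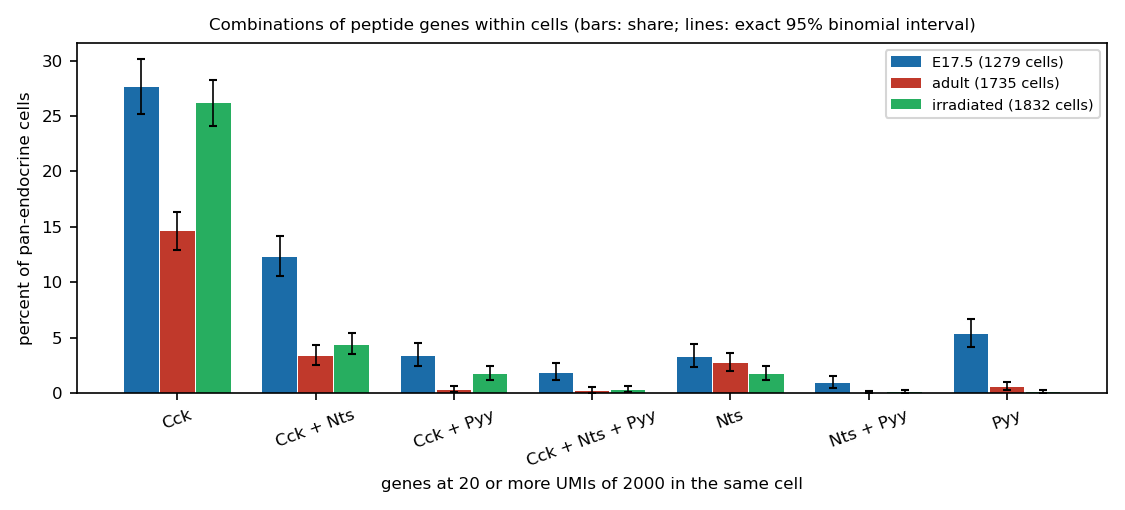
Share of thinned pan-endocrine cells with each combination of peptide genes at 20 or more UMIs, by library; bars are shares in percent and lines exact 95% binomial intervals. Cck alone is the most frequent combination in all 3 libraries, at 27.6%, 14.6% and 26.1%, followed by Cck with Nts.

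Within Nts-positive cells, the cells with the most Nts had the least Cck. At E17.5 the median Cck count was 171.5 UMIs in 56 cells with 20 to 49 Nts UMIs, 60 in 102 cells with 50 to under 200, and 20 in 75 cells with 200 or more. The Cck-positive share went down with it, from 98.2% (90.4 to 99.95) through 83.3% to 53.3% (41.4 to 65.0). Median depth before thinning was alike in the 3 bins, 9033 to 9584 UMIs. Across the 233 cells of this library Pearson's r of the log2 counts was -0.67, against -0.26 across 108 adult and -0.53 across 117 irradiated cells. It was -0.64, -0.25 and -0.51 when Cck was taken as a share of the UMIs left after Nts, since a fixed total of 2000 makes abundant transcripts displace each other. The adult median went from 79.5 through 18 to 7.5 Cck UMIs (46, 58 and 4 cells), and the irradiated median from 195.5 through 103 to 5 (50, 56 and 11 cells). In these 2 libraries the Nts-richest cells were also shallower, with median depths of 3425.5 and 3977 UMIs against 6429 and 15750.5 in the lowest bin, and the part of depth in this pattern was not tested.

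Secretin (Sct), which stimulates bicarbonate secretion, was the hormone transcript that most often accompanied Cck and Nts. At 20 UMIs, Sct was found in 98.8%, 89.3% and 76.8% of Cck-positive cells, and in all 233, in 95.4% and in 91.5% of Nts-positive cells. Other pan-endocrine cells also held much Sct: 65.3%, 48.8% and 37.9% of cells without Cck. In irradiated tuft cells 13.0% passed the same cut for Sct, and in adult tuft cells none of 901 did. Gcg was found in 18.9%, 15.99% and 21.5% of Cck-positive cells against 2.99%, 0.282% and 0% of the others. Gip, the gene of the incretin made by K cells, was rare beside Nts: 1.72%, 1.85% and 1.71% of Nts-positive cells against 16.2%, 46.3% and 22.2% of the others. Ghrl accompanied Cck in 44.4%, 29.2% and 36.0% of Cck-positive cells, above 23.9%, 5.86% and 7.68% in the rest, although at E17.5 its level was lower in Cck-positive than in other cells (22823 against 38780 CPM). Sst was nearly absent from Cck-positive cells, at 3 of 576, 0 of 319 and 4 of 595.

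Among Pyy-positive cells Gcg reached 20 UMIs in 33.8% at E17.5 (26.2 to 42.1) and 71.1% after irradiation (54.1 to 84.6), and in 3 of 17 adult cells. Insl5, a hormone gene of distal gut endocrine cells, stood at 197 CPM in E17.5 Pyy-positive cells and 12.9 CPM in the other pan-endocrine cells. The Pyy relative Ppy, the pancreatic polypeptide gene, showed the same order at E17.5, 82.3 against 3.97 CPM. These CPM values are of summed UMIs. At 20 UMIs, only 1 of the 145 Pyy-positive cells at E17.5 held Insl5 and 0 held Ppy. In the adult Ppy was not detected in pan-endocrine cells, and after irradiation 3 UMIs were. Gast, the gastrin gene and the relative of Cck, was 492 CPM in Cck-positive and 21.1 CPM in other cells at E17.5 (log2 ratio 4.54), 30.4 against 1.43 in the adult and 14.3 against 0.83 after irradiation. In Nts-positive cells at E17.5, Gast was lower than in the rest (130 against 317 CPM). In the islet-hormone set, the Pyy-positive cells held Sst in 33.8% and Ppy in 24 of 133 cells, against 2.68% and 0 of 149 in those without Pyy. Iapp was found in 50.4% against 76.5% of these cells, and Ins2 in 14.3% against 68.5%.

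Genes that varied with the peptides across pan-endocrine cells were ranked among 3976 genes by the lowest Pearson r over the 3 libraries. The points are cells of 1 library each, which share that library's free RNA. For Cck the highest were Scg2 (r 0.69, 0.71 and 0.81 at E17.5, adult and irradiated), a secretory granule protein, Sct (0.58, 0.49, 0.58), Rbp4 (0.49, 0.42, 0.54), the retinol carrier, Fars2 (0.44, 0.41, 0.44), a mitochondrial tRNA synthetase, and Gcg (0.37, 0.53, 0.54). For Nts only Sct (0.39, 0.31, 0.36) and Onecut3 (0.21, 0.23, 0.21), a homeobox factor, reached 0.2 in all 3 libraries. For Pyy no gene did, and the nearest, Gcg, had 0.39, 0.15 and 0.47. By rank correlation Scg2 kept rank 1 for Cck, Sct rank 1 for Nts and Gcg rank 1 for Pyy.

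Of the granule proteins, Chga and Scg2 differed between Cck-positive and other cells in opposite directions. Chga, chromogranin A, a general endocrine marker, was lower in Cck-positive cells than in other pan-endocrine cells in all 3 libraries: 486 against 5578 CPM at E17.5, 574 against 6432 in the adult and 1454 against 10347 after irradiation. Scg2 had the opposite order, at 1972 against 545, 4732 against 673 and 4486 against 495 CPM. Chgb, chromogranin B, was lower in Cck-positive cells by log2 values between -0.79 and -1.57. Of the 5 granule genes, 1 was 2-fold higher and 1 or 2 were 2-fold lower per library in Cck-positive cells, with list medians of 0.19, -0.83 and -0.79. Over all genes with at least 10 UMIs in either set, 2.02%, 2.56% and 2.90% were 2-fold higher and 7.13%, 12.1% and 9.70% were 2-fold lower.

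Peptide precursors are cut and modified by a set of enzymes, of which 9 genes were looked at. Pcsk1, the prohormone convertase of intestinal endocrine cells, was similar in Cck-positive and other cells of the adult (534 and 509 CPM) and of the irradiated library (482 and 567), and lower in Cck-positive cells at E17.5 (246 against 442). Pcsk2, the other neuroendocrine convertase, was scarce in Cck-positive cells, at 7.38, 3.83 and 0.929 CPM against 88.9, 18.4 and 15.6 CPM in the rest. In E17.5 islet-hormone cells Pcsk2 was 1198 CPM. Qpct, which forms the N-terminal pyroglutamate that neurotensin carries, was higher in Cck-positive cells in every library (log2 ratio 1.35, 2.13 and 2.19) and in Nts-positive cells by 0.49, 1.62 and 1.08. Nts-positive cells with Cck had 587, 195 and 173 CPM of Qpct. Those without Cck had 528, 58.4 and 114 CPM, the adult and irradiated values resting on 9 and 15 UMIs. Tpst2, one of the enzymes that sulfate tyrosine as in active cholecystokinin, had log2 ratios of 0.28, 1.38 and 1.13 in Cck-positive cells, and Cpe, which trims the cut ends, of 0.97, 0.55 and 1.22. Pam, the amidating enzyme that cholecystokinin and peptide YY need and neurotensin does not, was lower in Nts-positive cells (189 against 345, 206 against 347 and 254 against 337 CPM) and near equal in Cck-positive cells (328 against 291, 315 against 346 and 328 against 333). In Cck-positive cells 1, 2 and 3 of the 9 genes were 2-fold higher and 1, 1 and 2 were lower.

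Several receptors for nutrients were higher in Cck-positive cells. Ffar1, a receptor for long-chain fatty acids, stood at 116 against 29.9 CPM at E17.5, 335 against 69.6 in the adult and 331 against 35.6 after irradiation. In Nts-positive cells Ffar1 was 126 against 62.3, 352 against 135 and 330 against 155 CPM. Casr, the calcium-sensing receptor that also responds to amino acids, was low but higher in Cck-positive cells: 3.32 against 1.31, 9.58 against 1.67 and 13.5 against 2.59 CPM. Gpr119, a receptor for lipid amides, had log2 ratios of 1.58, 0.81 and 1.94 in Cck-positive and of 1.36, 0.23 and 1.86 in Pyy-positive cells. Of 9 receptors, 8, 7 and 8 had enough UMIs. In Cck-positive cells 3, 3 and 5 of these were 2-fold higher and 0, 1 and 1 were 2-fold lower. Over all genes 2.02%, 2.56% and 2.90% were 2-fold higher and 7.13%, 12.1% and 9.70% were 2-fold lower. The list median log2 ratio was 0.92, 0.78 and 1.5, beside -0.26, -0.25 and -0.26 over all genes.

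Of the 16 lineage transcription factors, Etv1 and Onecut3 were 2-fold higher in Cck-positive cells in all 3 libraries. Onecut3 was 242 against 46.0, 282 against 35.5 and 241 against 26.6 CPM, and Etv1, an ETS factor, 351 against 132, 411 against 42.4 and 429 against 32.9 CPM. In Pyy-positive cells the 2 genes parted: Etv1 was higher (435 against 226 CPM at E17.5, 720 against 195 after irradiation) and Onecut3 lower (59.7 against 165 and 14.4 against 124 CPM). Neurod1, which acts late in endocrine differentiation, was near equal in Cck-positive and other cells in each library (log2 ratio -0.34, 0.07 and 0.10). Lmx1a, a factor of serotonin-producing cells, was lower in Cck-positive cells (4.80 against 124, 3.28 against 120 and 15.9 against 200 CPM), and Tph1, the serotonin-synthesis enzyme, had log2 ratios of -1.91, -2.83 and -2.55. Hhex, a factor of somatostatin cells, had log2 ratios of -5.97, -7.60 and -5.32, the adult value resting on 2 UMIs in Cck-positive cells. In all, 5, 6 and 7 of the 16 factors were 2-fold lower in Cck-positive cells, and 9, 7 and 7 in Nts-positive cells, where 10.9%, 15.3% and 10.7% of all genes were. Over all genes 2.73%, 2.33% and 1.5% were 2-fold higher in Nts-positive cells. In Pyy-positive cells 1.82%, 5.82% and 2.79% of all genes were 2-fold higher and 8.04%, 29.4% and 19.3% 2-fold lower, the adult values resting on 17 cells.

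Among genes used as marks of position along the gut, Pdx1, a factor of the duodenum and pancreas, was lower in Nts-positive than in other pan-endocrine cells: 9.19 against 75.2 CPM at E17.5, 4.76 against 42.4 in the adult (4 UMIs) and 1.51 against 34.8 after irradiation (2 UMIs). In E17.5 Pyy-positive cells Pdx1 was above the rest, at 82.3 against 57.9 CPM. The regional genes Gata4, Onecut2, Osr2, Fabp6, Hoxa9, Hoxb9 and Hoxb13 had too few UMIs or no single direction for Nts over the 3 libraries, apart from Onecut2, at log2 ratios from -0.60 to -0.17.

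**Figure D4:**
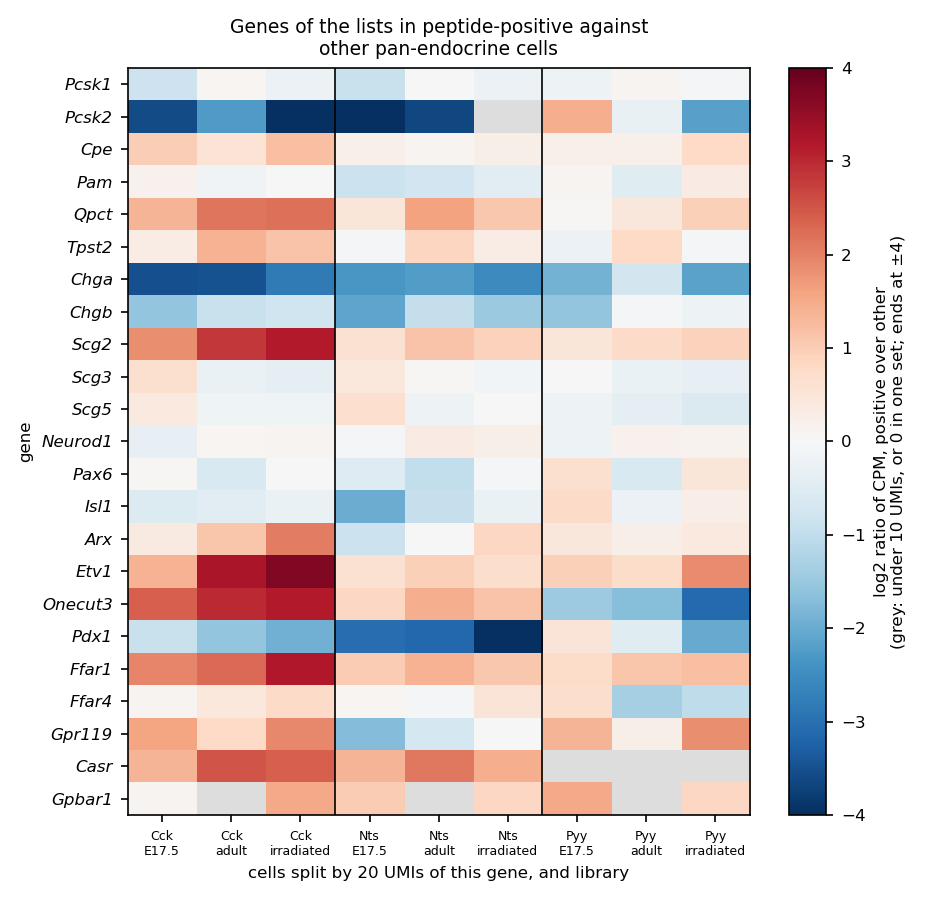
Log2 ratio of CPM between pan-endocrine cells with at least 20 UMIs of Cck, Nts or Pyy and all other pan-endocrine cells, for genes of the lists, by library; the colour scale ends at -4 and 4 and grey fields had under 10 UMIs or 0 in 1 set. Chga is blue in all 9 columns, Scg2 and Ffar1 are red in all 9, and Pdx1 is darkest in the Nts columns.

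Receptors of the 3 peptides were read at low levels in most classes. Cckar, the cholecystokinin receptor of pancreatic acinar cells, stood at 392.5 CPM (2742 UMIs) in E17.5 pancreatic exocrine cells and at most 5.56 CPM elsewhere. Cckbr had at most 1.29 CPM in any class. Of the neurotensin receptors, Ntsr1 had at most 2 UMIs in any class after E12.5, where it had 6, and Ntsr2 reached 1.96 CPM in adult pan-endocrine cells. Sort1, sortilin, a sorting receptor that also binds neurotensin, was 145 CPM in adult and 128 in irradiated tuft cells, and 48.6 and 60.3 in the pan-endocrine cells of these libraries. Npy1r, a peptide YY receptor, was 18.7 CPM in adult and 22.7 in irradiated pan-endocrine cells, and in the irradiated ones was lower in Cck-positive than in other cells (2.44 against 39.2 CPM). Npy4r and Npy5r gave at most 2 UMIs in any class. Dpp4, the peptidase that shortens peptide YY, stood at 115 CPM in adult pan-endocrine cells and 152 in adult enterocytes, and Mme, neprilysin, at 243 in adult enterocytes.

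UMIs of Cck were found in nearly every adult and irradiated cell, whatever its class. Outside the endocrine sets, 94.4% of adult and 99.8% of irradiated cells had at least 1 Cck UMI, against 40.9% at E17.5 and 0.864% of all E12.5 cells. For Nts these shares were 34.4%, 74.7% and 19.7% in the same order of libraries (adult, irradiated, E17.5), and for Pyy 7.41%, 22.1% and 18.5%. In adult tuft cells 92.9% and in adult pan-endocrine cells 98.0% had a Cck UMI, so a single UMI did not separate them. The median non-endocrine cell held 3 Cck UMIs in the adult and 10 after irradiation. Median counts in adult clusters outside the endocrine sets lay between 2 and 6.5 UMIs although their median depth ran from 1912.5 to 47132.5 UMIs. In irradiated clusters they lay between 7 and 18, over depths of 1315.5 to 98899.

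Ratios between the 3 genes were set beside those of each whole library, leaving out in each class the 10% of cells with the most peptide UMIs. At E17.5 the library held 405 Nts and 339 Pyy UMIs per 1000 of Cck. Enterocytes, goblet cells, mesenchymal cells, smooth muscle, pancreatic exocrine and other epithelial cells gave 385 to 535 Nts and 292 to 440 Pyy, and mesothelial cells (22 cells, 9 Cck UMIs) gave 667 and 111. These values depend on leaving those cells out of the classes and not of the library: the library trimmed the same way gave 162 Nts and 742 Pyy at E17.5, 209 and 141 in the adult and 91.6 and 28.3 after irradiation. With all cells, E17.5 enterocytes gave 1903 Nts, goblet cells 3968 and epithelial cells 170, and pancreatic exocrine cells gave 1386 Pyy. In the adult the library held 80.9 Nts and 16.2 Pyy, and the non-endocrine classes 98.5 to 162 Nts and 10.5 to 30.3 Pyy. After irradiation the library held 55.4 Nts and 15.7 Pyy. Apart from 1 exception, the classes held 150 to 185 Nts, above the library's value, and 11.6 to 23.2 Pyy. The exception lay near the library's value in Nts and above it in Pyy.

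That exception was irradiated cluster 5, 198 cells with a median of 1406 UMIs, led by Ly6d, Clu, Lgals3, Anxa3 and Ly6a (named after their values were seen). It held 57.1 Nts and 57.1 Pyy UMIs per 1000 of Cck, and Cck stood there at 18423 CPM, Nts at 837 and Pyy at 1202. In the 46 cells of this cluster deep enough to be thinned, 60.9% had at least 20 Cck UMIs and 28.3% at least 5 Pyy UMIs. The other 152 cells were too shallow. A shallow adult cluster of 138 cells with Paneth genes (cluster 10, median 1912.5 UMIs) had Cck at 7719 CPM. Among its cells deep enough to be thinned, 27.9% had at least 20 Cck UMIs. A deeper Paneth cluster (15, median 28751) had 130 CPM and 0%. Of all 215 adult Paneth cells, 143 were deep enough. In irradiated tuft cells Cck was uneven: cluster 6 stood at 12229 CPM and cluster 3 at 1940. Pcsk1 was 314 CPM in irradiated tuft cells. The part of free RNA in these levels was not tested.

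Cck UMIs were also found in E17.5 cells that express Neurog3, the factor that starts endocrine differentiation. In cluster 23 (66 cells, led by Neurog3 with Olfm4 and Lgr5) the median cell had 8 Cck UMIs, where all other non-endocrine clusters of the library had 0 or 1, and Cck stood at 1286 CPM, Nts at 10.3 and Pyy at 384. These UMIs were unevenly spread, with 479 Cck UMIs in 1 cell and 212 Pyy UMIs in 1 cell. Cluster 28 (40 cells, led by Neurog3 and Spp1) had 580 CPM of Cck and 1268 of Pyy, but 345 of its 354 Pyy UMIs lay in 1 cell.

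**Figure D5:**
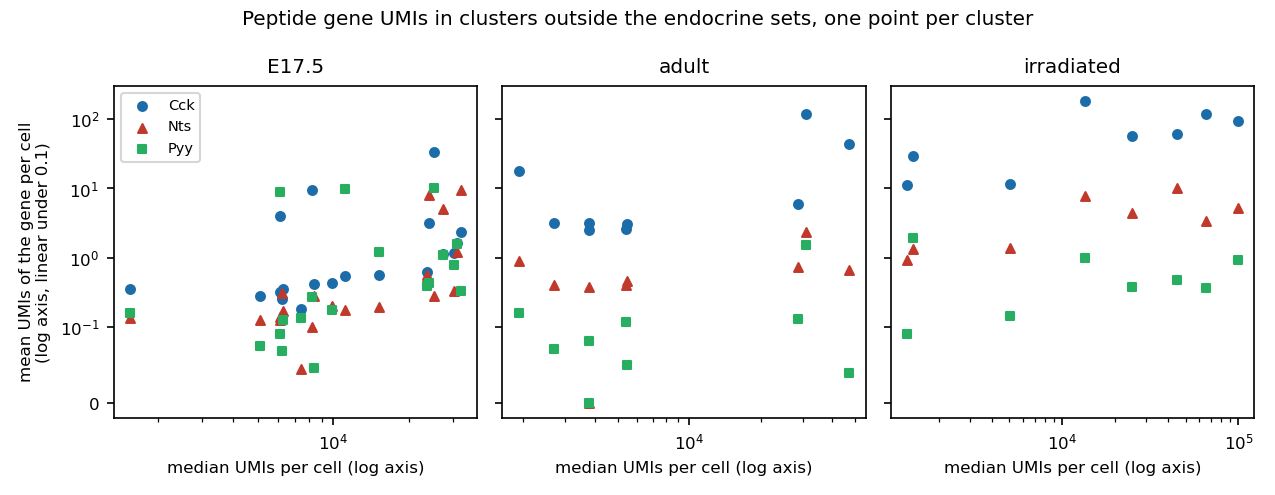
Mean UMIs per cell of Cck, Nts and Pyy against median depth, for each cluster outside the endocrine sets in 3 libraries; both axes are logarithmic, the vertical one linear under 0.1. In the adult and irradiated libraries Cck lies above 1 UMI per cell in every such cluster, and at E17.5 below 1 in most.

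The reporter transcript was low beside the peptides in both sets of cells. The eGFP row gave 1.48 CPM in Cck-positive and 3.49 in other pan-endocrine cells at E17.5, 1.37 and 2.15 in the adult, and 15.3 and 16.9 after irradiation, from 5 to 183 UMIs a set. Bmi1 was 15.5 and 30.1, 13.4 and 16.97, and 16.8 and 22.8 CPM in the same order.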

How the data were processed

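The authors deposited, for each of 4 libraries, a matrix of raw UMI counts per gene and barcode. Per the submitters' processing notes, Cell Ranger 3.1.0 and the mm10 build were used. Per the labels' protocols, libraries were made with the 10x 3′ kit, version 3 chemistry. Cells were barcodes with 500 or more genes and no more than 20% of UMIs from mitochondrial genes. The highest Scrublet scores (scanpy 1.11.5) were removed as doublets, at a share of 0.8% for each 1000 barcodes. Counts were normalised, reduced to 30 principal components of 2000 variable genes without Cck, Nts and Pyy, and clustered with Leiden (leidenalg 0.10.2) at resolution 1. Clusters were scored on marker lists; the pan-endocrine and islet-hormone sets and their thresholds were set after clusters were seen, and the pan-endocrine set stands for the enteroendocrine-like cells of the planned comparisons. Members and lists were chosen with earlier results of these data known.

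Levels are CPM of summed UMIs with exact Poisson 95% intervals. Shares carry exact Clopper-Pearson intervals, ratios exact conditional binomial ones. These intervals hold no biological spread, and no test was run since each group was 1 library. The ratio of levels was checked on simulated data. A gene counts as 2-fold higher or lower in CPM plus 1, among genes with at least 10 UMIs. Named genes are those of the lists, plus up to 5 per peptide with r of at least 0.2 in all 3 libraries among genes in at least 5% of cells. Promoters are from RefSeq GRCm38.p6, where all 3 genes matched. Alternatives included edgeR 4.0.16 TMM factors. Some genes of the lists are not reported here.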

Additional observations from a re-analysis of the deposited data

Results flagged for a closer look

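All 3 transcripts were present in the barcodes that the cell filter left out, which no comparison above uses. These barcodes had under 500 genes or over 20% mitochondrial UMIs. Cck stood there at 1323 CPM at E17.5, 2915 in the adult and 4792 after irradiation, Nts at 798, 621 and 1201 CPM, and Pyy at 299.7, 51.3 and 82.8 CPM. At E12.5 Pyy stood at 7.46 CPM, from 12 UMIs. These levels were flagged because they exceed the 3 UMIs that a count of 0 allows, with no control library to set them against.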

How the results depend on the processing

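No paired analysis was possible because each group was 1 library and no test was run. Of the recomputed values of the ratios and co-expression shares, 96 stayed within the counting interval, 88 moved past it and 4 changed sign; the causes were not tested. The intervals are narrow, so small moves count. From E12.5 to E17.5, Cck (11.75 to 12.04) and Nts (15.36 to 16.12) stayed within theirs, and Pyy, at 5.65, gave 5.78 with doublets kept, 5.79 with every barcode, 6.54 as the mean of each cell's CPM, 5.78 with TMM factors, 5.71 with hormone genes out of the total and 6.44 in thinned cells. The alternatives added after the data were seen were thinned cells, islet-hormone clusters included, and shallow clusters left out.

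Adult over E17.5, the Cck ratio of -0.34 changed sign to 0.13 under a gate on marker UMIs without clusters and to 1.32 over all kept cells. It was -0.36 with doublets kept, -0.067 with a stricter cell filter, -0.51 with every barcode, -0.43 at resolution 0.5, -0.35 when clustered with the 3 genes, -0.0145 with islet-hormone clusters, -1.18 as the mean over cells, -0.40 with TMM factors, -0.36 without hormones in the total and -0.92 in thinned cells. Nts, at -2.62, gave -2.66 (doublets), -2.69 (strict filter), -2.72 (every barcode), -2.71 (resolution 0.5), -2.32 (gate), -2.29 (islet-hormone clusters), -1.002 (all cells), -2.22 (mean over cells), -2.69 (TMM), -2.64 (hormones out) and -2.46 (thinned). Pyy, at -3.38, gave -3.19 (doublets), -3.28 (strict filter), -3.26 (every barcode), -3.34 (resolution 0.5, and clustered with the genes), -4.28 (gate), -4.37 (islet-hormone clusters), -3.07 (all cells), -3.54 (mean over cells) and -3.45 (TMM).

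Irradiated over adult, the Nts ratio of 0.13 changed sign to -0.0031 under the gate and to -0.11 without shallow clusters. The shallow clusters left out were irradiated ones only, among them the Nts-led cluster 15. It was 0.15 with doublets kept, 0.0071 with the strict filter, 0.43 over all cells, 0.26 as the mean over cells, 0.11 with TMM factors and 0.31 in thinned cells. Cck, at 0.71, gave 0.72 (doublets), 0.50 (strict filter), 0.68 (every barcode), 0.45 (gate), 0.78 (shallow clusters out), 0.98 (all cells), 1.34 (mean over cells), 0.69 (TMM, and hormones out) and 1.11 (thinned). Pyy, at 0.67, gave 0.44 (doublets, every barcode, and gate), 0.57 (strict filter), 0.73 (shallow clusters out), 0.94 (all cells), 0.58 (mean over cells) and 0.55 (thinned).

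At a cut of 5 UMIs, 97.8% of E17.5 Nts-positive cells were Cck-positive, and 89.7% thinned to 1000 UMIs, 99.6% thinned to 4000, and 99.3%, 90.2% and 77.3% at cuts of 2, 10 and 20. Adult cells gave 81.7%, then 52.3% and 96.2% for these depths, 73.7% without thinning, 88.8% at a cut of 2 and with the strict filter, 65.4% at 10 and 56.5% at 20. Irradiated cells gave 94.1%, then 81.8%, 97.1% (4000 UMIs, and no thinning), 83.8% at 10 and 72.6% at 20. Of E17.5 Pyy-positive cells 67.0% were Cck-positive, and 75.4% without thinning, 73.5%, 59.1% and 45.5% at 2, 10 and 20, 78.5% at resolution 0.5, 41.6% under the gate and 41.9% with islet-hormone clusters. In the adult 40.4% were, 59.0% without thinning and 72.1% at a cut of 2, and after irradiation 96.7% and 100% without thinning.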
